A study of Macaca mulatta with 4 samples.

Results

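The mitochondrial respiratory chain genes of RF/6A cells were examined in 4 RNA sequencing libraries. They were chosen by symbol, as the nuclear genes for subunits of complexes I to V whose names begin with NDUFA, NDUFB, NDUFC, NDUFS or NDUFV, SDH, UQCR, COX4 to COX8 or ATP5 in a fixed pattern, with CYC1, CYCS and the assembly factor UQCC1 added. The rule found 49 genes among 21314 rows, of which 14654 carried a symbol. They were 21 genes of complex I, 4 of complex II, 5 of complex III, 7 of complex IV, 11 of complex V and UQCC1. RF/6A is a rhesus macaque (Macaca mulatta) line that its labels describe as chorioretinal, bought from a cell repository, with no genetic change or agent named. All 4 libraries were titled as static and came from total RNA of cells grown in serum-containing medium, and they form 1 group with replicates 1 to 4. The labels do not say whether they came from separate cultures, so the spread given is that between these samples and may be technical. The series has no second group here, and each comparison below is between genes or between libraries of this group. Among markers of the labelled tissue and its neighbours, 5 of 5 fibroblast genes reached 1 CPM (count per 1000000 counts) in every library. So did 3 of 5 retinal pigment epithelium genes and 1 of 6 endothelial genes, beside 64.3% of all genes with a count. Of the pigment epithelium genes, PMEL measured 34.9, 45.8, 31.5 and 33.8 CPM in libraries 1 to 4. BEST1 measured 15.1, 1.48, 29.8 and 15.2 CPM and RPE65 1.18, 1.23, 1.35 and 2.04 CPM. TYR had no count and RLBP1 reached at most 0.0617 CPM.

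The respiratory chain passes electrons from food to oxygen in the inner mitochondrial membrane. Complex I takes them from NADH and complex II from succinate, complex III moves them from ubiquinol to cytochrome c, and complex IV gives them to oxygen. Complexes I, III and IV pump protons as they do so, and complex V, the ATP synthase, uses the returning protons to make ATP. Most subunits are encoded in the nucleus, and mitochondrial DNA encodes the others, which include the catalytic core of complex IV. Several nuclear subunits of complex IV have alternative genes that are used in muscle, lung or testis.

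Library totals were alike, between 20366946 and 20550610 estimated counts, but library 2 differed from the others in composition. Genes of the cytosolic ribosome took 14.98% of its counts against 6.08% to 6.66% elsewhere, and rows without a symbol took 21.7% against 13.1% to 13.9%. The trimmed mean of M-values (TMM) scaling, which sets most genes equal between libraries, therefore multiplied its total by 0.793 and those of the other libraries by 1.08 to 1.09. Levels are CPM on this scale. The ratio used for library 2 is the log2 of its CPM + 0.5 over the median of the 4 libraries. Over the 12453 genes that averaged 1 CPM or more, the median of that ratio was -0.04 with TMM and -0.41 with plain CPM, which is the shift against which values on each scale should be read. CPM is not divided by transcript length, so it ranks a gene between libraries and not genes against each other.

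Every respiratory chain gene found was expressed. All 49 reached 1 CPM in each library, where 64.3% of the 17534 genes with any count did so. Their median level was 5.67, 6.98, 5.62 and 5.76 log2(CPM + 0.5) in libraries 1 to 4, beside 4.48, 4.21, 4.48 and 4.46 over all genes that averaged 1 CPM or more. The share of all counts that came from them was 0.38%, 0.655%, 0.381% and 0.418%, with 95% Wilson limits of 0.652% to 0.659% in library 2 and 0.415% to 0.421% in library 4, the next highest. These limits cover counting error only. Among libraries 1, 3 and 4 the genes were steady, with a median coefficient of variation of 6.73% beside 8.85% over all genes. Across all 4 libraries it was 60.5%, beside 35.1%. The Pearson correlation of log2 levels across the 49 genes was 0.99 for every pair among libraries 1, 3 and 4 and 0.81 to 0.84 for pairs with library 2. These are descriptions across genes of shared libraries.

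Library 2 held the highest level of 43 of the 49 genes and the lowest of 5, where it was highest for 43.8% and lowest for 48.0% of all genes. By Dixon's gap test, which asks whether 1 of 4 values stands clear of the others, library 2 was apart and high for 37 of the genes and apart and low for 2 (NDUFS1 and SDHD). Over all 12453 genes the same calls were made for 21.8% and 11.2%. With plain CPM the genes gave 27 high and 3 low calls, where the split over all genes turned to 11.5% high and 16.7% low. On log2 values the calls were 30 high and 2 low, beside 14.7% and 21.5%, since a low value is called less readily on CPM. No other library was apart for any of the 49 genes. The median ratio of library 2 over the genes was 1.39 with TMM and 0.95 with plain CPM, above the all-gene median on either scale. Library 2 also carried the ribosomal excess given above, and the part of that composition in these ratios was not tested.

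**Figure D1:**
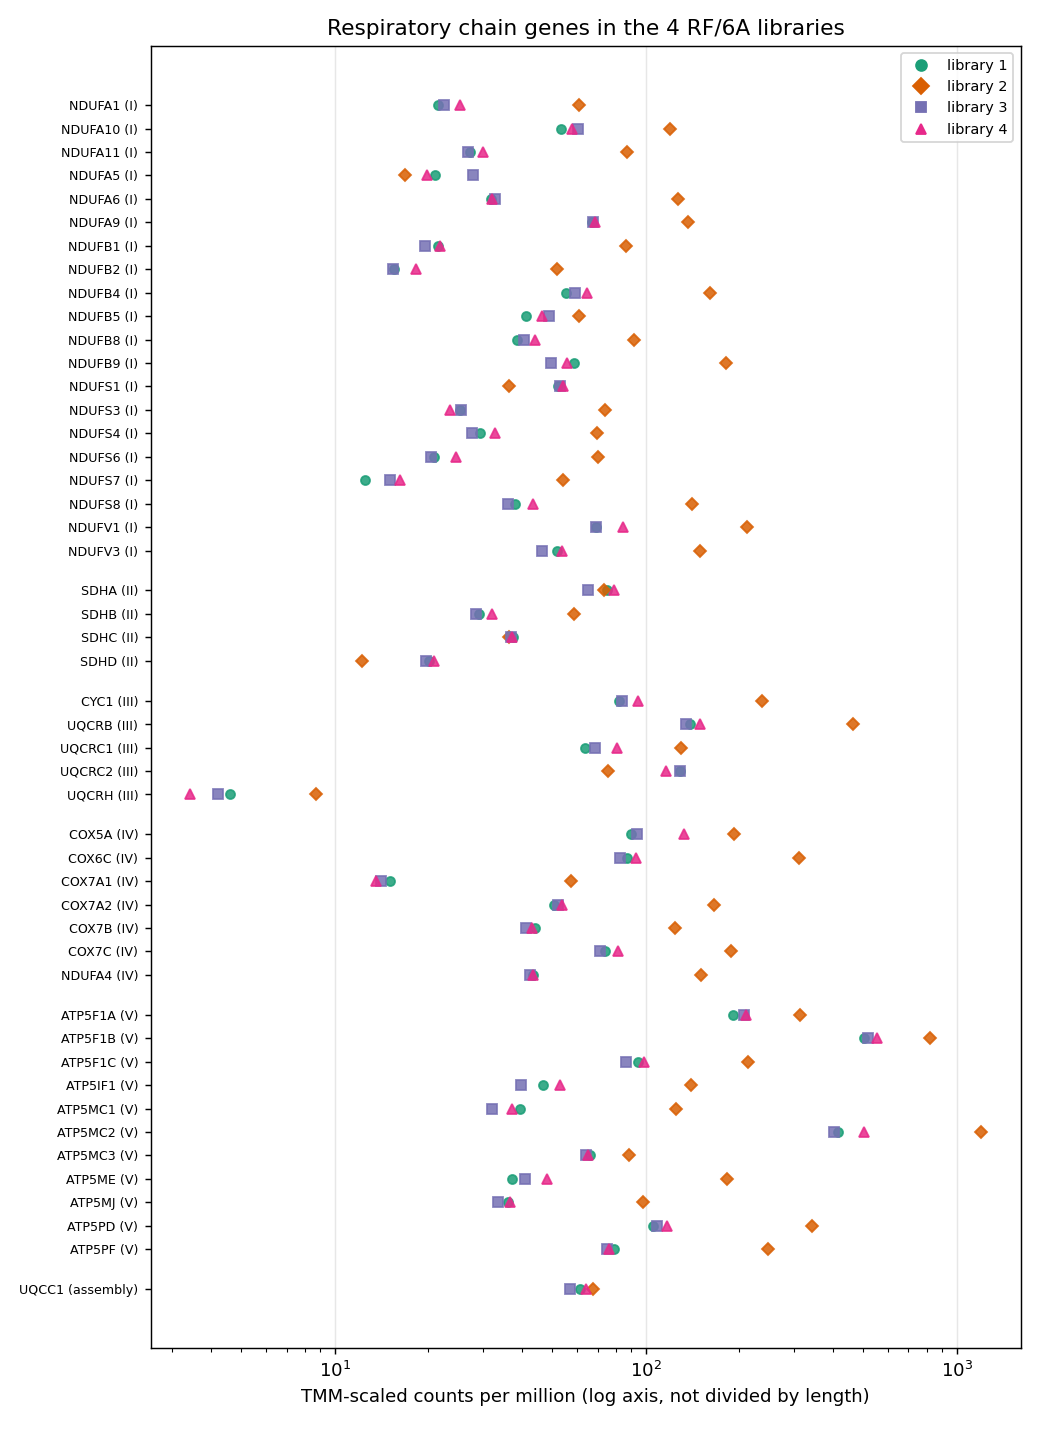
Points show TMM-scaled CPM (log axis) of 48 of the 49 respiratory chain genes, with a marker for each RF/6A library, grouped by complex (I to V). Libraries 1, 3 and 4 lie close together for most genes, and library 2 (diamonds) lies to the right for 42 of the 48.

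Complex I varied widely, with library 2 ratios from -0.53 (NDUFS1) to 1.97 (NDUFB1). Its matched genes were 6 of the 7 nuclear core subunits, which carry the flavin and the iron-sulphur clusters or the quinone site, and 15 accessory subunits. Library 2 was apart and high for 17 of the 21 genes and apart and low for 1, beside 21.8% and 11.2% over all genes. NDUFB1 (ENSMMUG00000022428), a small membrane-arm subunit, measured 21.6, 86.5, 19.5 and 21.8 CPM in libraries 1 to 4. NDUFA6, an accessory subunit that binds an acyl carrier protein, measured 31.8, 127, 32.8 and 32.02 CPM. Library 2 was 4.13-fold and 3.94-fold the mean of the other 3 for these genes, while the others differed from each other by little. The core subunits NDUFS7 and NDUFS8, which lie next to each other in the chain of iron-sulphur clusters, went the same way. NDUFS8 measured 37.9, 141, 35.99 and 43.4 CPM, and NDUFS7 12.6, 54.2, 15.1 and 16.2 CPM. NDUFV1 (ENSMMUG00000018526), which binds NADH and the flavin, measured 69.2, 211, 69.1 and 84.3 CPM.

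NDUFS1 (ENSMMUG00000016788), the largest core subunit of complex I and the holder of several of its iron-sulphur clusters, was lower in library 2. It measured 52.4, 36.5, 53.1 and 54.1 CPM, so library 2 lay below 3 libraries that spanned only 52.4 to 54.1 CPM. NDUFA5, an accessory subunit of the matrix arm, measured 21.02, 16.8, 27.8 and 19.9 CPM, and library 2 was lowest without being apart. NDUFB5, a membrane-arm subunit, measured 41.1, 61.3, 48.7 and 46.5 CPM. Library 2 was the highest for NDUFB5 but not apart, and it changed side of the 4-library median with plain CPM (a ratio of -0.02). Core and accessory subunits had similar medians of the library 2 ratio, at 1.49 and 1.36. NDUFS3, a core subunit of the arm that leads to the quinone site, measured 25.2, 73.96, 25.5 and 23.5 CPM, and NDUFS4, an accessory subunit often mutated in Leigh syndrome, 29.3, 69.8, 27.7 and 32.8 CPM. NDUFA9, which sits where the arms of the complex meet, measured 67.1, 137, 67.7 and 68.6 CPM. Library 2 was apart and high for all 3. A further 9 genes of the complex had ratios from 1.01 (NDUFA10) to 1.65 (NDUFB9), and library 2 was apart and high for each of them.

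Complex II was the complex in which library 2 was not generally high. Its 4 subunits, all nuclear and all matched, had a median ratio of -0.02 (-0.42 with plain CPM). Of these, 1 gene was apart and high, 1 apart and low and 2 not apart. Over all genes library 2 was apart and high for 21.8% and apart and low for 11.2%, and 4 genes are too few to set against those shares. SDHA (ENSMMUG00000014452), the flavoprotein that oxidises succinate, measured 75.02, 73.7, 65.2 and 79.4 CPM, and library 2 sat within the others. SDHB, the iron-sulphur subunit that partners SDHA, measured 29.1, 58.8, 28.5 and 32.1 CPM, with library 2 1.97-fold the mean of the others. SDHC and SDHD, which anchor the enzyme in the membrane, differed from SDHB. SDHC measured 37.3, 36.5, 36.8 and 37.3 CPM, a spread of 1.1% over 4 libraries, whereas SDHD measured 20.2, 12.3, 19.7 and 20.9 CPM and was 0.606-fold in library 2. With plain CPM, library 2 was also apart and low for SDHC and no longer apart for SDHB. Complex II supplied 4.59%, 2.2%, 4.28% and 4.37% of the counts of the 49 genes in libraries 1 to 4, a share that does not depend on scaling. The share depends on the other complexes too, since the 49 genes had 133846 counts in library 2 and 77414 to 85872 elsewhere. Complex II itself had 3551, 2938, 3343 and 3750 counts, lowest in library 2. With TMM its summed level was 162, 181, 150 and 170 CPM, highest in library 2. The 95% Wilson limits of the share in library 2 were 2.12% to 2.27%, clear of the lowest limit elsewhere, 4.14% in library 3. Such limits cover counting error only and not the spread between libraries.

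Complex III was split within itself. CYC1 (ENSMMUG00000007149), cytochrome c1, which hands electrons to cytochrome c, measured 82.2, 237, 83.8 and 94.8 CPM, and the small subunit UQCRB 139, 464, 135 and 149 CPM, and library 2 was apart and high for both. The paired core proteins UQCRC1 and UQCRC2, which together form the large matrix-facing part of the complex, did not move together. UQCRC1 measured 64.01, 130.3, 68.9 and 80.7 CPM, with library 2 highest. UQCRC2 (ENSMMUG00000018287) measured 129, 75.5, 129 and 117 CPM, with library 2 lowest at 0.606-fold the mean of the others. Dixon's test called neither, since library 4 lay between library 2 and the other libraries. UQCRC2 had the lowest library 2 ratio of the 49 genes, at -0.69. UQCRH, a small acidic subunit near cytochrome c1, had the fewest counts of any gene, 101, 141, 94 and 76, or 4.59, 8.7, 4.22 and 3.44 CPM. Its exact 95% Poisson limits were 7.32 to 10.3 CPM in library 2 and 3.74 to 5.58 CPM in library 1. UQCRH is known to have near-identical copies in primates, and Salmon shares reads among copies, so its level is uncertain. UQCC1, which assists the assembly of complex III, measured 61.3, 67.8, 57.01 and 64.4 CPM, with no library apart.

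The nuclear subunits of complex IV were high in library 2 as a group. All 7 matched genes were highest there and 6 were apart, beside 43.8% highest and 21.8% apart and high over all genes. Their median ratio was 1.63 (TMM) or 1.19 (plain CPM). These subunits surround the catalytic core that mitochondrial DNA encodes and regulate it. COX6C (ENSMMUG00000000165) measured 86.8, 310.2, 82.4 and 92.98 CPM. COX7B measured 43.99, 125, 41.3 and 43.2 CPM and COX7C 73.9, 188, 71.3 and 81.5 CPM. The other 3 libraries lay between 82.4 to 92.98, 41.3 to 43.99 and 71.3 to 81.5 CPM for these genes, well clear of library 2. COX5A, which binds a thyroid hormone metabolite in the matrix, measured 89.6, 192, 93.4 and 133 CPM. Library 4 lay above libraries 1 and 3 for COX5A, and no library was apart. COX4I1, the general form of subunit 4 and outside the rule, measured 142, 521, 159.7 and 185 CPM, with library 2 apart and high. The complex supplied 11.5%, 14.4%, 11.3% and 11.9% of the counts of the 49 genes.

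Alternative genes for a subunit could be compared for COX7A, NDUFA4 and the c subunit of ATP synthase, 5 gene pairs in all. Only the COX7A pair sets a tissue form against a general form. COX7A1 (ENSMMUG00000000250) encodes the form of subunit 7a typical of heart and skeletal muscle, and COX7A2 (ENSMMUG00000043152) the general form. COX7A1 was expressed, with 331, 933, 314 and 301 counts or 15.1, 57.6, 14.1 and 13.6 CPM in libraries 1 to 4. COX7A2 measured 50.5, 165, 52.2 and 53.9 CPM. COX7A1 counts were 29.8%, 34.8%, 27.05% and 25.3% of COX7A2 counts, and library 2, apart and high for both genes, had the highest of these percentages. The log2 ratio was -1.76 ± 0.19 (SD, n = 4), below 0 in 4 of 4 libraries, and an exact permutation test that flips signs over libraries gave a two-sided p of 0.13 (0.13 is the smallest that 4 libraries can give). It is a ratio of counts and not of molecules per length. Markers of muscle were mostly at or near 0 in the same libraries. Of 10 listed, 7 matched a row, and 5 of those stayed below 1 CPM in every library. Over all 17534 genes with a count, 4423 did so. MYH7 had no count, CKM reached at most 0.136 CPM and MB had 1 count in library 1, while DES, which smooth muscle and some mesenchymal cells also express, measured 3.73, 9.44, 3.32 and 4.97 CPM and ACTA1 passed 1 CPM in library 3 at 1.48 CPM.

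NDUFA4, once assigned to complex I and now counted with complex IV, measured 43.5, 151, 42.4 and 43.4 CPM. Its relative NDUFA4L2, which hypoxia induces and which lies outside the rule, was near the threshold of expression, at 11, 69, 9 and 14 counts or 0.50, 4.26, 0.404 and 0.633 CPM. Library 2 was apart and high for both, and was the only library in which NDUFA4L2 passed 1 CPM. NDUFA4L2 averaged 1.45 CPM over all libraries and 0.513 CPM without library 2. It therefore met a mean of 1 CPM only through library 2, and its call rests on that same value. NDUFA4L2 counts were 1.15%, 2.83%, 0.953% and 1.46% of NDUFA4 counts in libraries 1 to 4. The log2 ratio was -5.32 ± 0.25 (SD, n = 4), below 0 in 4 of 4 libraries, and the same exact permutation test gave p = 0.13 before any adjustment over the 5 pairs, which could not lower it.

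**Figure D2:**
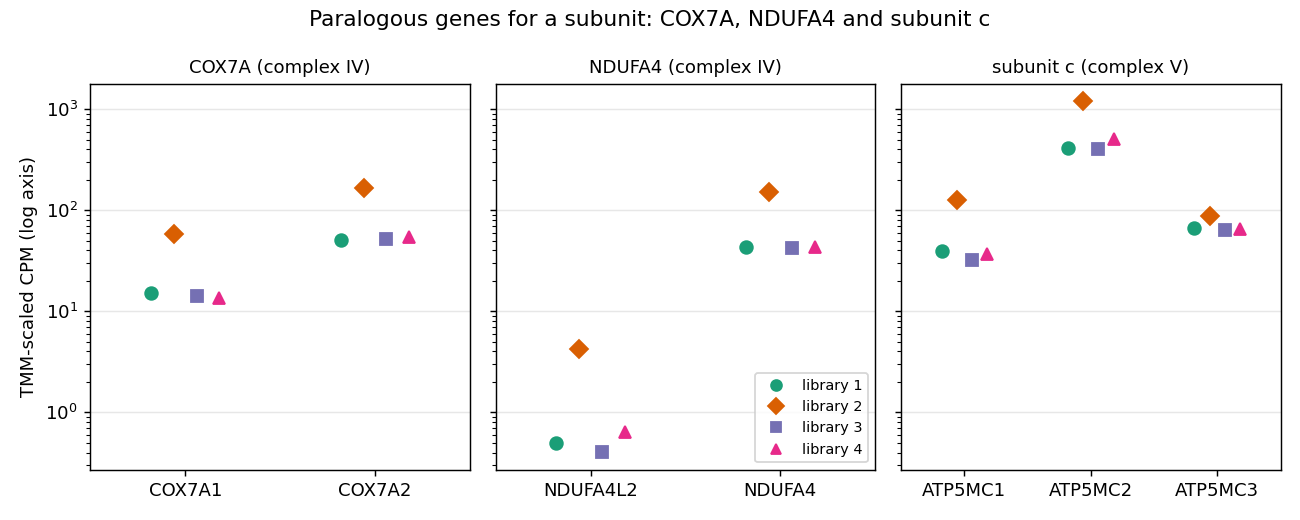
Points give TMM-scaled CPM on a log axis in each of the 4 libraries for COX7A1 and COX7A2, NDUFA4L2 and NDUFA4, and the subunit c genes ATP5MC1, ATP5MC2 and ATP5MC3. Both COX7A genes lie highest in library 2, while ATP5MC1 lies below ATP5MC3 in libraries 1, 3 and 4 and above it in library 2.

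ATP synthase genes supplied the largest share of the counts of the 49 genes, 45.9%, 45.7%, 45.8% and 46.4% in libraries 1 to 4, and library 2 did not stand out in that share. All 11 matched genes were highest in library 2 and apart from the other libraries with TMM, where 21.8% of all genes were apart and high. With plain CPM library 2 was apart and high for 6 of the 11, beside 11.5% of all genes, and ATP5MC3 lay below the 4-library median. The c ring, the rotor that protons turn, is encoded by ATP5MC1, ATP5MC2 and ATP5MC3, whose proteins differ in the import sequence and share the mature peptide. ATP5MC2 (ENSMMUG00000016241) measured 415, 1197, 402 and 502 CPM. ATP5MC1 measured 39.4, 125, 31.99 and 37.04 CPM, and ATP5MC3 66.01, 88.1, 64.1 and 65.5 CPM. The order of ATP5MC1 and ATP5MC3 turned between libraries, since ATP5MC1 counts were 59.6%, 142%, 49.9% and 56.6% of ATP5MC3 counts. The log2 ratios were -0.74, 0.51, -0.99 and -0.81, with a mean of -0.51 ± 0.69 (SD, n = 4; exact permutation test, p = 0.25). With 4 libraries this test cannot give a p below 0.13, so it cannot decide whether the mean differs from 0. The ratio is also one of counts and not of molecules per length. Without library 2 the mean was -0.85 ± 0.13 (SD, n = 3). ATP5MC2 over ATP5MC3 was 2.99 ± 0.53 and ATP5MC1 over ATP5MC2 -3.50 ± 0.23 in log2 units, each keeping its sign in all 4 libraries (exact permutation test, p = 0.13 for each).

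Within ATP synthase, the 3 matched genes of the F1 part had lower library 2 folds than the peripheral stalk genes. ATP5F1B (ENSMMUG00000001027), the subunit that holds the catalytic sites, measured 505, 824, 518 and 555 CPM, and its partner ATP5F1A 191, 313, 207 and 211 CPM. Library 2 was 1.57-fold and 1.54-fold the mean of the others for these, and with plain CPM it was not apart for either. ATP5F1C, the central shaft, was 2.28-fold, with 94.6, 213, 86.3 and 98.7 CPM. The peripheral stalk, which holds the head still, had larger folds. ATP5PD measured 106, 344, 109 and 117 CPM and ATP5PF 79.2, 247, 75.3 and 76.4 CPM, 3.11-fold and 3.21-fold in library 2. ATP5ME, a small membrane subunit that helps the enzyme form dimers, measured 37.1, 182, 41.02 and 48.03 CPM, and its library 2 ratio of 2.03 was the highest of the 49 genes. ATP5MJ, another small membrane subunit, measured 36.03, 98.3, 33.6 and 36.7 CPM. ATP5IF1, which blocks ATP hydrolysis by the enzyme when the membrane potential is lost, measured 46.6, 140.3, 39.6 and 53.1 CPM. For ATP5MC3 the library 2 ratio was 0.42 with TMM and -0.0058 with plain CPM, so it changed side of the 4-library median. Both values lay above the all-gene medians of -0.04 and -0.41 on these scales.

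**Figure D3:**
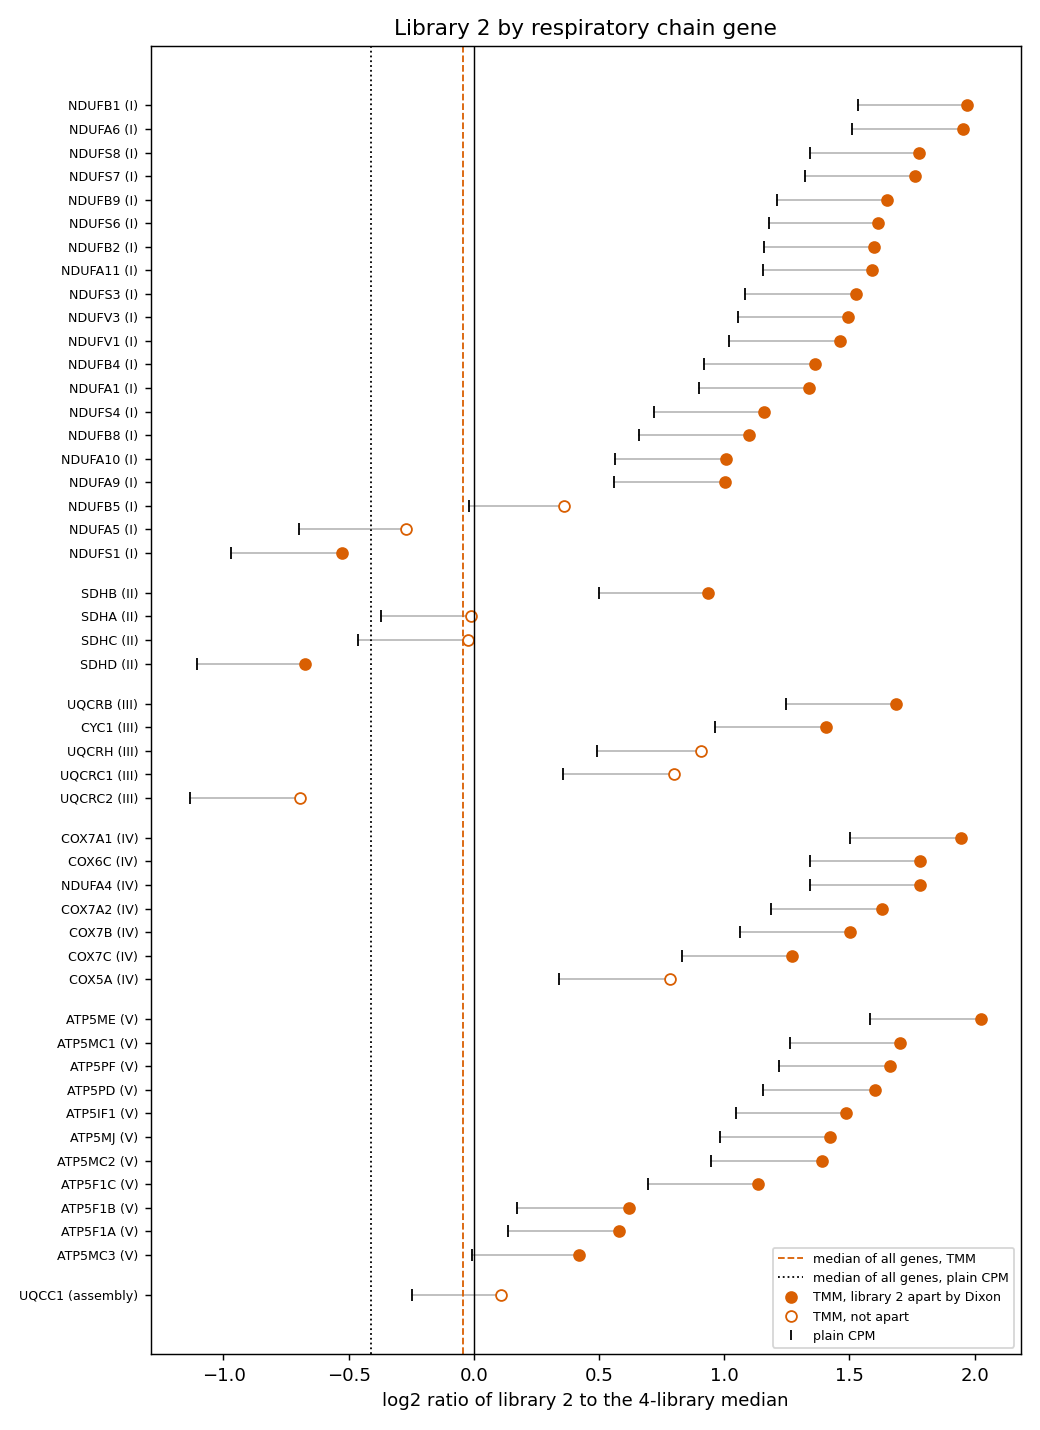
Log2 ratio of library 2 over the median of all 4 for 48 of the 49 genes by complex, with TMM (circles, filled where library 2 is apart by Dixon's test) and plain CPM (ticks), and dashed and dotted lines at the all-gene medians of -0.04 and -0.41. Most genes of complexes I, IV and V lie above 1 with TMM, complex II centres on -0.02, and UQCRC2, SDHD and NDUFS1 lie lowest.

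Subunits that assemble in fixed proportion were compared within libraries, where scaling cancels. These gene pairs were chosen after their values were seen and carry no test. SDHB counts were 144%, 479%, 145% and 153% of SDHD counts in libraries 1 to 4. UQCRC1 counts were 49.8%, 173%, 53.5% and 69.3% of UQCRC2 counts. NDUFV1 counts were 132%, 580.0%, 130.2% and 156% of those of NDUFS1, its neighbour in the electron input arm. In these 3 pairs library 2 was at a higher percentage than any other library. SDHD, UQCRC2 and NDUFS1 had the lowest library 2 ratios of the 49 genes, so the choice of pairs largely set this direction. Further pairs were computed. SDHA counts were 258%, 125%, 229% and 248% of SDHB counts, lowest in library 2, and the rest not given here were highest in it. ATP5F1A counts, by contrast, were 37.8%, 37.9%, 39.9% and 38.00% of ATP5F1B counts, a proportion that held within narrow bounds in all 4. ATP5PD counts were 20.9%, 41.7%, 21.01% and 21.1% of ATP5F1B counts, which places a stalk gene and a head gene of the same enzyme at different proportions in library 2. Absolute values of these percentages depend on transcript length. Their comparison between libraries is free of length only if transcript usage and any bias related to length were alike in all libraries. Neither was tested, since no lengths were used.

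Assembly factors, which build the complexes without staying in them, were shifted less. Of 44 listed, 34 matched a row and 33 reached 1 CPM in every library. SDHAF1, an assembly factor of complex II, missed it at 0.773, 1.73, 0.674 and 0.724 CPM. Over the 33 that averaged 1 CPM or more, the median library 2 ratio was 0.81 (0.37 with plain CPM). Library 2 was apart and high for 15 and apart and low for 2 (21.8% and 11.2% over all genes). With plain CPM the calls were 9 high and 3 low (11.5% and 16.7% over all genes), and with DESeq2 size factors 18 were high. PET100, which helps to assemble complex IV, measured 22.02, 83.4, 17.2 and 19.99 CPM, and COX20, a chaperone for a mitochondrially encoded subunit of the same complex, 39.9, 127, 38.1 and 40.5 CPM. UQCC2, a complex III factor that works with UQCC1, measured 13.4, 43.2, 12.7 and 13.9 CPM. Library 2 was high for all 3. The genes apart and low were SDHAF4 and ATPAF1. SDHAF4, which binds the flavinated SDHA before it joins SDHB, measured 24.98, 6.66, 23.9 and 26.5 CPM. ATPAF1, a chaperone of the F1 head of ATP synthase, measured 121, 49.7, 116 and 117 CPM. The other matched factors of complex II did not share the low value of SDHAF4. SDHAF2, which helps to attach the flavin to SDHA, measured 54.5, 88.3, 48.7 and 47.5 CPM, and SDHAF3, which helps SDHB to mature, 10.4, 13.3, 7.28 and 10.5 CPM. Library 2 was highest for both but not apart, and SDHAF3 changed side of the 4-library median with plain CPM (a ratio of -0.05).

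Transcription factors and coactivators of respiratory genes were mixed in library 2. Of 12 listed, 10 matched a row and 8 reached 1 CPM in every library, and the median library 2 ratio of the 10 was -0.81 (-1.23 with plain CPM), with 1 apart and high and 3 apart and low (21.8% and 11.2% over all genes). PPARGC1A, the coactivator that drives mitochondrial biogenesis, measured 6.82, 0.864, 5.44 and 5.97 CPM. GABPA, the DNA-binding part of a factor that acts on many subunit genes, measured 29.8, 4.32, 27.00 and 23.6 CPM, and NRF1, another such factor, 12.7, 5.06, 8.81 and 10.1 CPM. These 3 were lowest in library 2 but not apart by Dixon's test on CPM. YY1 measured 56.7, 23.1, 59.4 and 60.9 CPM and GABPB1, the partner of GABPA, 49.1, 27.8, 46.8 and 49.4 CPM. TFAM, which packages and transcribes mitochondrial DNA, measured 53.9, 16.8, 58.99 and 54.8 CPM. Library 2 was apart and low for YY1, GABPB1 and TFAM. TFB1M, a methylase of mitochondrial ribosomal RNA, went the other way at 7.73, 17.03, 7.68 and 7.55 CPM. PPRC1 and ESRRA, whose proteins also act on respiratory genes, measured 63.9 ± 3.78 CPM and 8.77 ± 1.49 CPM (SD, n = 4) with no library apart. Library 2 was below the 4-library median for 7 of the 10, where it was so for 52.0% of all genes (9 of 10 and 64.1% with plain CPM). The median ratio of the list lay within the middle 50% of all genes, -1.01 to 0.72.

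Beside these lists, genes of the mitochondrial ribosome, which translates the subunits encoded in mitochondrial DNA, had a median library 2 ratio of 1.02 over 45 genes, and genes of the cytosolic ribosome one of 1.78 over 60. Complexes IV (1.63), I (1.46) and V (1.42) lay between these, with complex III at 0.91 and complex II at -0.02. The ribosomal lists were added after values were seen. The part of this wider shift in the values of the respiratory chain was not tested.

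**Figure D4:**
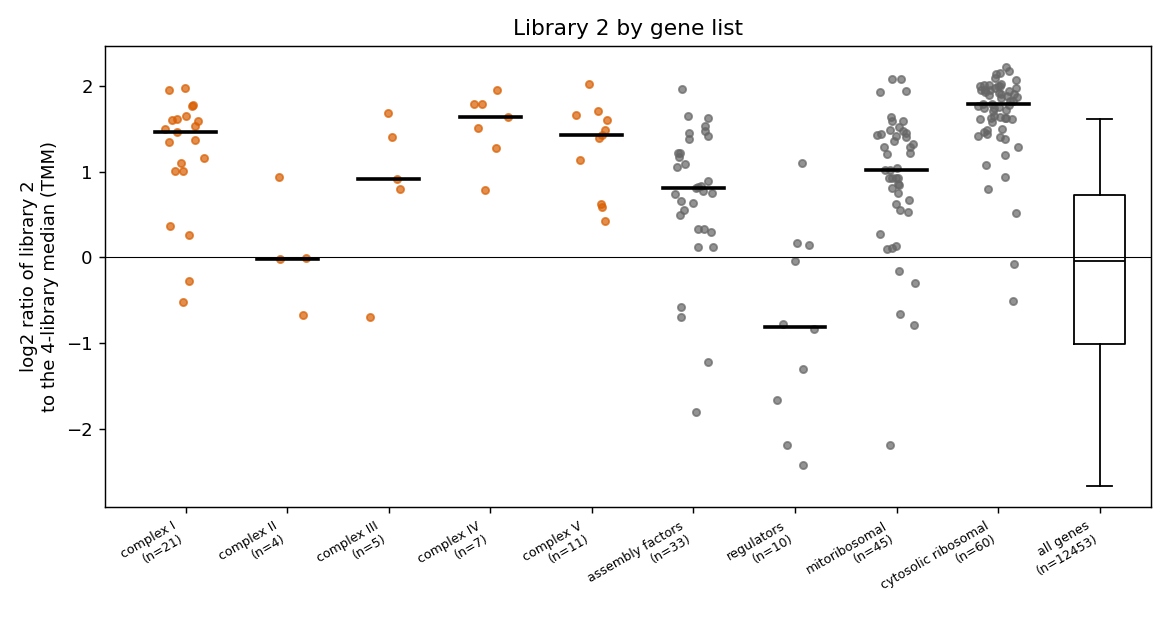
Each point is the log2 ratio of library 2 over the median of all 4 (TMM) for a gene averaging 1 CPM or more, by list, with bars at list medians, and the box gives the quartiles and the 5th and 95th percentiles over all 12453 genes. The middle 50% of all genes span -1.01 to 0.72, and the medians of complexes I, III, IV and V lie above that span, while complex II and the regulators do not.

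Not every subunit could be followed. Of 85 listed genes under the rule, 36 matched no row by symbol, and their levels were not analysed here. They may lie among the rows without a symbol, which took more of the counts of library 2 (21.7%) than of the others (13.1% to 13.9%), so the counts and shares above cover matched genes only. They include CYCS, which encodes cytochrome c, the Rieske protein UQCRFS1 of complex III, NDUFV2, COX5B, COX6A1, COX6B1 and COX8A. The muscle form COX6A2 and the testis forms COX6B2, COX7B2 and COX8C were also unmatched, as was the lung form COX4I2 outside the rule, so 6 of the 11 listed gene pairs could not be compared. Of the genes for the subunits encoded in mitochondrial DNA, none was matched by name. Of 8 listed testis germ cell markers, 6 matched a row, and all 6 stayed below 1 CPM in every library. Over all 17534 genes with a count, 4423 did so.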

How the data were processed

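The values are estimated counts for each rhesus Ensembl gene, deposited by the authors as whole numbers. The submitters' processing notes name Salmon and DESeq2 with no role or version. Genome build and annotation: not given in the sources used here. In general Salmon divides reads among similar transcripts, and counting limits leave out that error for genes with close copies. Symbols came from a table of current Ensembl identifiers (14654 of 21314 rows). No sequences, coordinates or transcript lengths were used. The planned levels per kilobase of coding length were therefore replaced by CPM, with TMM in edgeR 4.0.16 under R 4.3.3. A count of 3, the limit a count of 0 allows, is 0.135 to 0.185 CPM. Dixon's critical value was 0.829. Alternatives were DESeq2 1.42.0 size factors, plain CPM, other pseudocounts (0.1 and 1), thresholds and leaving out each library. The code was tested on simulated data. The rule named every gene of the set (1 of them is counted but not reported here by name), with values per library for the highest and lowest of each complex, the members of gene pairs and those most shifted in library 2. Examples from other lists were picked with their values in view. The genes and lists were chosen with earlier results of these data known.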

Additional observations from a re-analysis of the deposited data

Results flagged for a closer look

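Dixon's gap test was run on 90 values, and 58 of them had a library standing clear of the rest (about 1 in 20 would by chance, and 33.8% of all genes averaging 1 CPM or more did). It was library 2 each time, high in 50 and low in 8. These values share that library and are not independent. The 90 values also include genes from other lists that were picked with their values in view. The 58 calls therefore cannot be judged against 1 in 20 or 33.8%, which apply to genes not picked in that way. The calls given above for the genes of the rule alone do not include those picked examples.

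In complex I, the CPM of library 2 was high for NDUFA1 (61.1), NDUFA10 (119.7), NDUFA11 (87.2), NDUFA6 (127), NDUFA9 (137), NDUFB1 (86.5), NDUFB2 (51.9), NDUFB4 (160.4), NDUFB8 (91.5), NDUFB9 (181), NDUFS3 (73.96), NDUFS4 (69.8), NDUFS6 (70.3), NDUFS7 (54.2), NDUFS8 (141), NDUFV1 (211) and NDUFV3 (149.7) and low for NDUFS1 (36.5). In complex II, the CPM of library 2 was high for SDHB (58.8) and low for SDHD (12.3). In complex III, the CPM of library 2 was high for CYC1 (237) and UQCRB (464). In complex IV, the CPM of library 2 was high for COX6C (310.2), COX7A1 (57.6), COX7A2 (165), COX7B (125), COX7C (188) and NDUFA4 (151). In complex V, the CPM of library 2 was high for ATP5F1A (313), ATP5F1B (824), ATP5F1C (213), ATP5IF1 (140.3), ATP5MC1 (125), ATP5MC2 (1197), ATP5MC3 (88.1), ATP5ME (182), ATP5MJ (98.3), ATP5PD (344) and ATP5PF (247). Outside the 49 genes, it was high for COX4I1 (521), NDUFA4L2 (4.26), SDHAF1 (1.73), PET100 (83.4), COX20 (127), UQCC2 (43.2) and TFB1M (17.03) and low for SDHAF4 (6.66), ATPAF1 (49.7), GABPB1 (27.8), YY1 (23.1) and TFAM (16.8). SDHAF1 averaged 0.975 CPM, so it lay outside the genes averaging 1 CPM or more, and NDUFA4L2 reached that mean only through library 2. Among summary values, library 2 was high for the median log2(CPM + 0.5) of all 49 genes (6.98), of complex IV (7.37) and of complex V (7.74). It was also high for the log2 ratio of ATP5MC1 over ATP5MC3 (0.51), the share of all counts from the 49 genes (0.655%) and the share from cytosolic ribosomal protein genes (14.98%), and low for the share of the 49 genes' counts from complex II (2.2%).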

How the results depend on the processing

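Of 107 summary values recomputed under the alternatives, 103 kept their place, which means a count or coefficient of variation within 1.5 times, a level within 1 SD or a gene pair with the same sign. Among these, shifts were seen in the high calls of library 2 (37 with TMM, 27 with plain CPM), the median coefficient of variation (60.5% and 40.4%) and ATP5MC1 over ATP5MC3 (-0.51, or -0.85 without library 2). The criterion was lenient, since the SD of a median level was taken over all 4 libraries and so included the shift of library 2. The complex IV level of 6.13 (SD 0.83) counted as kept at 5.83 without library 2. The library 2 ratios of single genes depended more on scaling. With plain CPM all 49 shifted by more than the SD of the other 3 libraries, and with DESeq2 size factors 2 did. Scaling multiplies all counts of a library by the same factor, so the genes shifted largely together. The all-gene median likewise went from -0.04 with TMM to -0.41 with plain CPM. The median library 2 ratio of the 49 genes was 0.95 with plain CPM and 1.30 to 1.42 when library 1, 3 or 4 was left out. The median coefficient of variation was 6.76% without library 2 and at most 65.03% without another. Between TMM and plain CPM, 4 genes changed side of the 4-library median, among them ATP5MC3 (-0.0058 with plain CPM), NDUFB5 and UQCC1. All 4 lay above the all-gene median on either scale. No gene of the 49 changed side between TMM and DESeq2 size factors. Dixon's test on log2 values, chosen after seeing the data, gave 30 high and 2 low calls, beside 14.7% and 21.5% over all genes. At 5 CPM, 48 of the 49 genes were expressed, without UQCRH. The division by coding length that was planned could not be run, since no lengths were used. Dixon's test was not run on 3 libraries, and the library 2 ratio does not exist without library 2. No paired analysis was possible because there is 1 group. Counting error limits UQCRH most.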
